A study of Mangifera indica with 4 samples.

Results

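The 200 transcripts described here are the most abundant of the mango fruit transcripts that were assembled as the only transcript of their locus. They were taken from 8108 such loci among 30582 listed transcripts, and were chosen by the highest mean normalized level over all 4 libraries, a value that the authors deposited. Their abundance is therefore a description and not a result. The RNA came from the mesocarp, the edible flesh, of Mangifera indica cultivar Alphonso. The 4 groups were spongy fruit at 10 days after harvest (mid ripe), spongy fruit at 5 days (table green), healthy fruit at 10 days and healthy fruit at 5 days. Each group held 1 library, so no difference below has a replicate check, each comparison set 1 library against 1 with no test, and the sources used here do not say whether a library pooled several fruits.

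Mango is a climacteric fruit, which ripens after harvest with a burst of respiration and ethylene while starch turns to sugar and the cell walls of the flesh soften. Spongy tissue is a disorder of Alphonso in which part of the flesh becomes pale, soft and corky inside a fruit that looks sound from outside. In bulk flesh, fewer cells of a type and less RNA per cell cannot be told apart.

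The files give the transcripts by assembly number only. Of the 200 numbers, 0 matched the RefSeq table of mango genes, so no transcript is given a gene name or a role, and no sequence is shown. An assembly name holds a locus number, the transcript's place in that locus, a value called Confidence and a length in nucleotides. What the Confidence value measures is not stated in the sources used here, and it serves below only as a label.

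Reads were recovered from the deposited means and fold changes. They came to between 52778932 and 75039490 per library. The healthy libraries stood apart from the spongy ones, in opposite directions. The 180 transcripts of locus 2 took 51.0% of the reads in the spongy 10-day library and 51.3% in the spongy 5-day library, against 72.3% in the healthy 10-day library and 21.6% in the healthy 5-day library. The size factors, by which reads were divided, were 1.11 and 1.27 in these spongy libraries, against 0.389 and 1.84 in the healthy ones. Setting every library to the same total of reads would move every log2 ratio by the same amount, -0.78 for spongy over healthy fruit at 5 days, 1.92 for spongy over healthy fruit at 10 days, -2.75 for 10 over 5 days in healthy fruit and -0.05 for 10 over 5 days in spongy fruit. Differences between transcripts within a library pair are not touched by that choice. All intervals given are at the 95% level and, with 1 library per group, reflect the error of counting reads alone. Reads without molecular identifiers are not independent molecules, so the intervals can be too narrow even for that error. The sources used here do not state how a read that matches more than 1 locus was counted.

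The 200 transcripts held 3.94% of the reads of the spongy 10-day library and 3.58% of those of the spongy 5-day library. In healthy fruit they held 2.18% at 10 days and 2.69% at 5 days. All single-transcript loci together held 7.44%, 6.77%, 2.91% and 7.45% in the same order of libraries. The Wilson intervals of the members' shares were at most 0.0101 percentage points wide. The median member had a normalized level of 3200 in the spongy 10-day library, 2969 in the spongy 5-day library, 3086 in the healthy 10-day library and 2456 in the healthy 5-day library. All members had at least 140 reads in each spongy library. In the healthy libraries 18 members were under 100 reads at 10 days and 10 at 5 days, and none was at 0. The lowest-ranked member, of locus 710, had a mean of 1855, and the next transcript, of locus 7144, had a mean of 1849. Levels of the transcript of locus 710 were 1706, 1623, 1878 and 2213 in the same order of libraries, and those of the transcript of locus 7144 were 1152, 1706, 935 and 3603.

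The members fell into classes by a label that the ranking did not use. A Confidence of 1 was carried by 35 members, a Confidence of 0 by 139 and a value between them by 26. The 35 were short, with a median of 263 nt, and 34 of them were under 500 nt. The 139 had a median length of 1790 nt and only 2 were under 500 nt. The 35 lay at the end of the assembly's numbering, in loci 14157 to 14444, while the 139 lay in loci 14 to 6250. Place and length went with the label beyond the members. The 141 other single-transcript loci with a Confidence of 1 lay in loci 14126 to 14473, with a median of 193 nt. Among the 200 single-transcript loci ranked just below the members, 2 had a Confidence of 1, and among all 8108 there were 176. Per kb of transcript the 35 had a median mean level of 55772, against 1749 for the 139. The split into these classes was chosen after the values were seen.

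The 5 most abundant members show the pattern of the first class and 1 exception to it. Locus_14262_Transcript_1_1_Confidence_1.000_Length_226 had the highest mean of all members, 377939, or 1672297 per kb. Its normalized level was 375435 in the spongy 10-day library, 281471 in the spongy 5-day library, 779216 in the healthy 10-day library and 75634 in the healthy 5-day library. It was thus highest in the healthy 10-day library and lowest in the healthy 5-day library, with the spongy libraries between. Locus_14162_Transcript_1_1_Confidence_1.000_Length_1152, the only member of its class over 500 nt, had levels of 167862, 176637, 743688 and 19298 in the same order of libraries. Locus_14164_Transcript_1_1_Confidence_1.000_Length_244 had levels of 71709, 71968, 256799 and 9055. Locus_14245_Transcript_1_1_Confidence_1.000_Length_292 had levels of 61404, 55683, 139904 and 13190. In each of these the healthy libraries lay at the extremes, with the spongy libraries between. With equal totals of reads per library the order at 10 days turned for 3 of them, and the log2 ratio of spongy over healthy fruit became 0.86 for locus 14262, 0.078 for locus 14164 and 0.73 for locus 14245, while that of locus 14162 was -0.23. Locus_13714_Transcript_1_1_Confidence_0.750_Length_936 was arranged otherwise, with levels of 135628 and 142064 in spongy fruit at 10 and 5 days, against 45017 and 61924 in healthy fruit. These 5 held between 0.623% and 1.59% of the reads of a library.

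**Figure D1:**
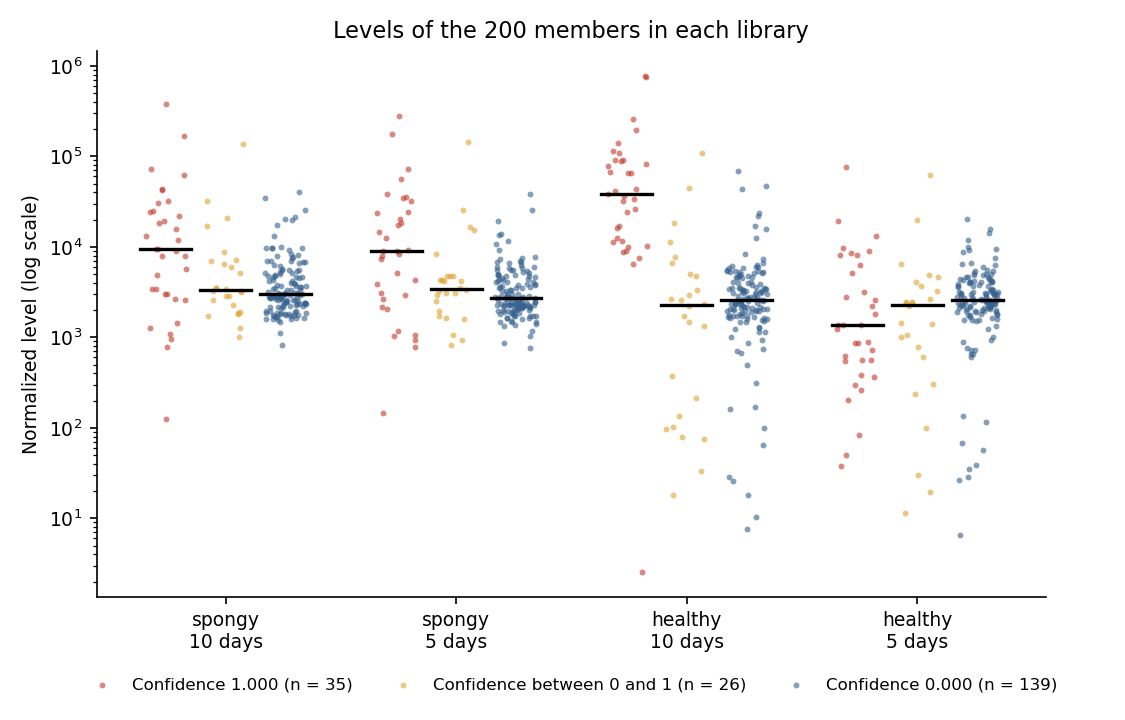
Normalized level on a log scale (vertical axis) of the 200 members in each of the 4 libraries (horizontal axis), 1 point per transcript, coloured by the Confidence value in the transcript's name, with a black bar at the median of each class. The median of the 35 transcripts of Confidence 1 is 38022 in the healthy 10-day library and 1365 in the healthy 5-day library, while the median of the 139 of Confidence 0 lies between 2575 and 2973 in every library.

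Of the 35 members with a Confidence of 1, 33 were highest in the healthy 10-day library and lowest in the healthy 5-day library. That order held for 2201 of all 30582 transcripts, for 147 of the 180 of locus 2 and for 25 of the 141 other single-transcript loci with a Confidence of 1. A high level in 1 library raises the mean that chose the members, so the count is a description. The median level of the 35 was 9355 in the spongy 10-day library, 9012 in the spongy 5-day library, 38022 in the healthy 10-day library and 1365 in the healthy 5-day library. The remaining 2 were higher in spongy fruit at both stages, the transcripts of loci 14440 and 14444, of which the second is named here after its values were seen. Locus_14444_Transcript_1_1_Confidence_1.000_Length_284 had levels of 24438 and 23391 in spongy fruit at 10 and 5 days, against 10188 and 8026 in healthy fruit. As a share of the reads, the 35 took 2.06% in the spongy 10-day library, 1.91% in the spongy 5-day library, 1.74% in the healthy 10-day library and 0.655% in the healthy 5-day library. The order of the first 3 thus turns with the scaling, whereas healthy fruit at 5 days was lowest both as a level and as a share.

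The transcripts of locus 2, which are not members, lay in the same direction for both comparisons of the conditions and for healthy ripening. In spongy ripening both sets were near level. At 5 days the median log2 ratio of spongy over healthy fruit was 2.22 for the 35 members and 1.86 for locus 2. At 10 days it was -2.20 for the members and -2.11 for locus 2. For 10 over 5 days it was 4.83 and 4.28 in healthy fruit, and 0.10 and 0.10 in spongy fruit. With equal totals of reads per library the medians of the 35 were 1.44 at 5 days, -0.28 at 10 days and 2.08 for healthy ripening. Those of locus 2 were then 1.08, -0.19 and 1.53 in the same order. No test was made of the likeness to locus 2, and the pattern of locus 2 was known from earlier results of these data.

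Members with a Confidence of 0 were mostly near level. Their median log2 ratio was 0.01 for spongy over healthy fruit at 5 days, 0.10 at 10 days, 0.05 for 10 over 5 days in healthy fruit and 0.09 in spongy fruit. These values are relative to the authors' scaling, under which the median of all transcripts compared was 0.01, 0.01, 0.00 and 0.00. The gap between the medians of the classes, Confidence 1 minus Confidence 0, does not depend on the scaling. It was 2.21, -2.30, 4.77 and 0.00 in the same order of comparisons.

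**Figure D2:**
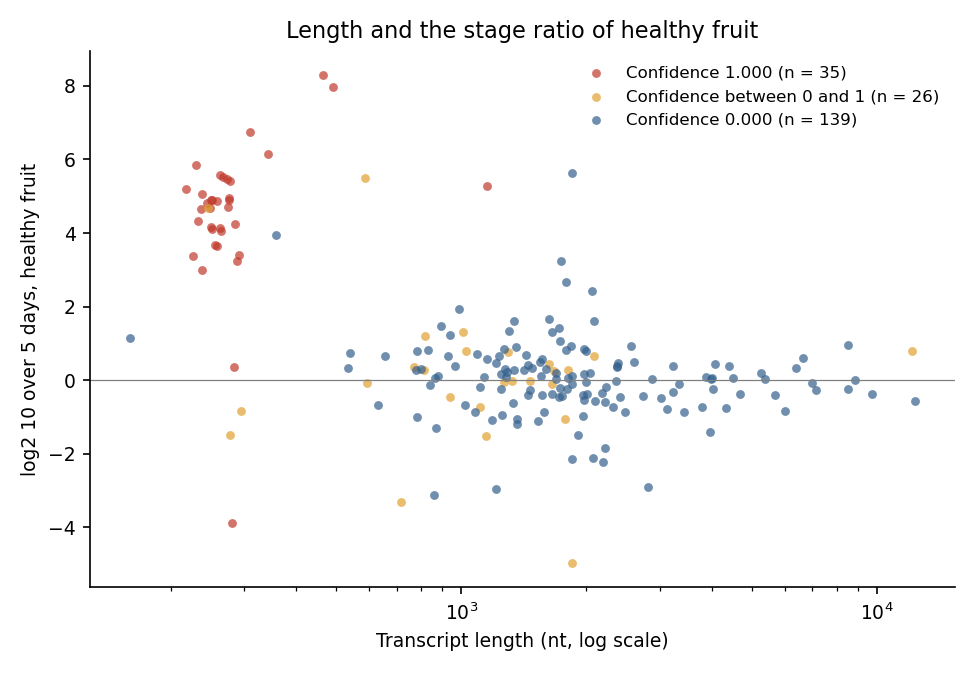
Log2 ratio of 10 over 5 days in healthy fruit (vertical axis) against transcript length in nt on a log scale (horizontal axis), 1 point per member, coloured by Confidence. Most of the short transcripts of Confidence 1 lie between 3 and 6 on the log2 scale, while the median of those of Confidence 0 is 0.05.

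At 5 days, 76 of the 200 members (38.0%) were at least 2-fold higher in spongy than in healthy fruit and 10 (5.00%) were at least 2-fold lower. Over all 29316 transcripts compared the shares were 15.0% and 9.82%. Of the 76, 34 had a Confidence of 1, 13 a value between and 29 a Confidence of 0. Outside Confidence 1, 42 of 165 members were higher and 10 lower. The median log2 ratio of all members was 0.31. Under equal totals of reads per library 50 members (25%) were higher and 57 (28.5%) lower, against 8.17% and 35.9% of all transcripts.

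The members farthest apart at 5 days were nearly unread in healthy fruit. Locus_5783_Transcript_1_1_Confidence_0.000_Length_656 had a level of 6903 (8747 reads) in spongy fruit, against 6.53 (12 reads) in healthy fruit. The ratio was 1057-fold, with an exact (Clopper-Pearson) interval of 605 to 2046. At 10 days its levels were 5741 in spongy and 10.3 in healthy fruit, where it had under 100 reads. Locus_14440_Transcript_1_1_Confidence_1.000_Length_280 had a level of 34640 in spongy fruit, against 38.1 (70 reads) in healthy fruit, 909-fold higher (719 to 1166). In the other direction the differences were smaller. Locus_1413_Transcript_1_1_Confidence_0.000_Length_2069 had a level of 2211 in the spongy 5-day library, against 12032 in healthy fruit, 5.44-fold lower (5.23 to 5.66). Its levels at 10 days were 1541 in spongy and 2747 in healthy fruit, so healthy fruit at 5 days alone stood high. Locus_1870_Transcript_1_1_Confidence_0.333_Length_1264 had 819 in spongy fruit, against 2643 in healthy fruit, 3.23-fold lower (3.02 to 3.45). At 10 days it had 1713 in spongy and 2554 in healthy fruit, and spongy fruit at 5 days was the library that stood low.

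At 10 days, 44 members (22.0%) were at least 2-fold higher in spongy than in healthy fruit and 44 (22.0%) were at least 2-fold lower. Over all 29059 transcripts compared the shares were 18.1% and 12.3%. The 2 sets of 44 differed in makeup. Of the 44 higher members 2 had a Confidence of 1, and of the 44 lower members 32 did. Outside Confidence 1 the counts were 42 higher and 12 lower of 165. The median log2 ratio of all members was -0.10. Under equal totals of reads per library 153 (76.5%) were higher and 7 (3.5%) lower, against 85.9% and 0.840% of all transcripts.

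Locus_14440_Transcript_1_1_Confidence_1.000_Length_280 was again among the farthest apart, with a level of 24906 (27633 reads) in the spongy 10-day library, against 2.57 (1 read) in healthy fruit. With 1 read the ratio of 9690 is hardly bounded, and its interval ran from 1740 to 382876. Locus_5570_Transcript_1_1_Confidence_0.000_Length_857 had 4597 in spongy fruit, against 7.71 (3 reads) in healthy fruit, a ratio of 596 (204 to 2893). At 5 days it had 6747 in spongy and 67.5 in healthy fruit, so both spongy libraries lay far above both healthy ones. The lowest ratios belonged to a pair of neighbouring locus numbers. Locus_14294_Transcript_1_1_Confidence_1.000_Length_463 had levels of 780 in the spongy 10-day library and 1059 at 5 days, against 115687 in the healthy 10-day library and 369 at 5 days. Locus_14293_Transcript_1_1_Confidence_1.000_Length_491 had levels of 126, 148, 12472 and 50.1 in the same order of libraries. Each stood high in 1 library only, healthy fruit at 10 days. The first was 148-fold lower in the spongy 10-day library (139 to 159) and the second 98.8-fold lower (83.5 to 118).

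Between the stages of healthy fruit, 53 of 199 members (26.6%) were at least 2-fold higher at 10 than at 5 days and 21 (10.6%) at least 2-fold lower. The transcript of locus 5783 was left out because its mean over the healthy libraries was under the minimum of 10. Over all 28528 transcripts compared the shares were 8.27% and 11.5%. Of the 53 higher members 33 had a Confidence of 1, and outside that class 20 were higher and 20 lower. The median log2 ratio of all members was 0.26. With the same total of reads per library 31 of the 199 (15.6%) were higher and 158 (79.4%) lower, against 1.15% and 96.8% of all transcripts, and the members' median was -2.48.

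The 2 highest ratios were again those of Locus_14294_Transcript_1_1_Confidence_1.000_Length_463, 314-fold higher at 10 days (291 to 339), and Locus_14293_Transcript_1_1_Confidence_1.000_Length_491, 249-fold higher (203 to 309). The lowest ratio was that of Locus_5690_Transcript_1_1_Confidence_0.333_Length_1850, with levels of 103 (40 reads) at 10 days and 3236 at 5 days in healthy fruit, 31.5-fold lower (23.1 to 44.1). In spongy fruit it had 2257 at 10 days and 4202 at 5 days, so that healthy fruit at 10 days alone stood low. Next lowest was Locus_14440_Transcript_1_1_Confidence_1.000_Length_280, with 1 read at 10 days and 70 at 5 days, 14.8-fold lower (2.58 to 594).

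Fewer members differed by 2-fold between the stages of spongy fruit than in any other comparison. The same held over all transcripts. At 10 days, 19 of 200 (9.50%) were at least 2-fold higher than at 5 days and 1 (0.5%) at least 2-fold lower. Over all 29193 transcripts compared both shares were 6.36%. No member with a Confidence of 1 was among them, and the log2 ratios of those 35 ran from -0.48 to 0.88. Of the 19 higher members, 14 had a Confidence of 0 and 5 a value between. The median log2 ratio of all members was 0.10. The count of higher members depended on how members were ranked, with 12 by the median of the 4 levels and 9 by the mean of the healthy libraries alone.

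Locus_5723_Transcript_1_1_Confidence_0.000_Length_1846 had levels of 9259 at 10 days and 857 at 5 days in spongy fruit, 10.8-fold higher at the later stage (10.1 to 11.5). It was also higher at 10 days in healthy fruit, with levels of 1955 at 10 days and 39.2 at 5 days, 49.9-fold higher (39.1 to 64.5). Locus_6196_Transcript_1_1_Confidence_0.000_Length_1844 had 7045 at 10 days and 1039 at 5 days in spongy fruit, 6.78-fold higher (6.39 to 7.19). In healthy fruit it went the other way, with 162 (under 100 reads) at 10 days and 717 at 5 days. The single lower member, Locus_5008_Transcript_1_1_Confidence_0.000_Length_2810, had 1109 at 10 days and 2278 at 5 days in spongy fruit, 2.05-fold lower (1.921 to 2.198). In healthy fruit it was lower at 10 days as well, with 496 at 10 days and 3702 at 5 days.

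Set side by side, the conditions share no library in their stage ratios. At 10 days 6 members (3.0%) were 2-fold or more higher in both conditions and 1 (0.5%) was lower in both, against 2.69% and 1.86% of 29539 transcripts. Higher in spongy but lower in healthy fruit were 3 members (1.5%), against 0.731% of all, and the opposite was found for 0 members, against 0.755%. These counts depend on the scaling. Equal totals of reads per library would move every stage ratio by -2.75 in healthy fruit and by -0.05 in spongy fruit.

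**Figure D3:**
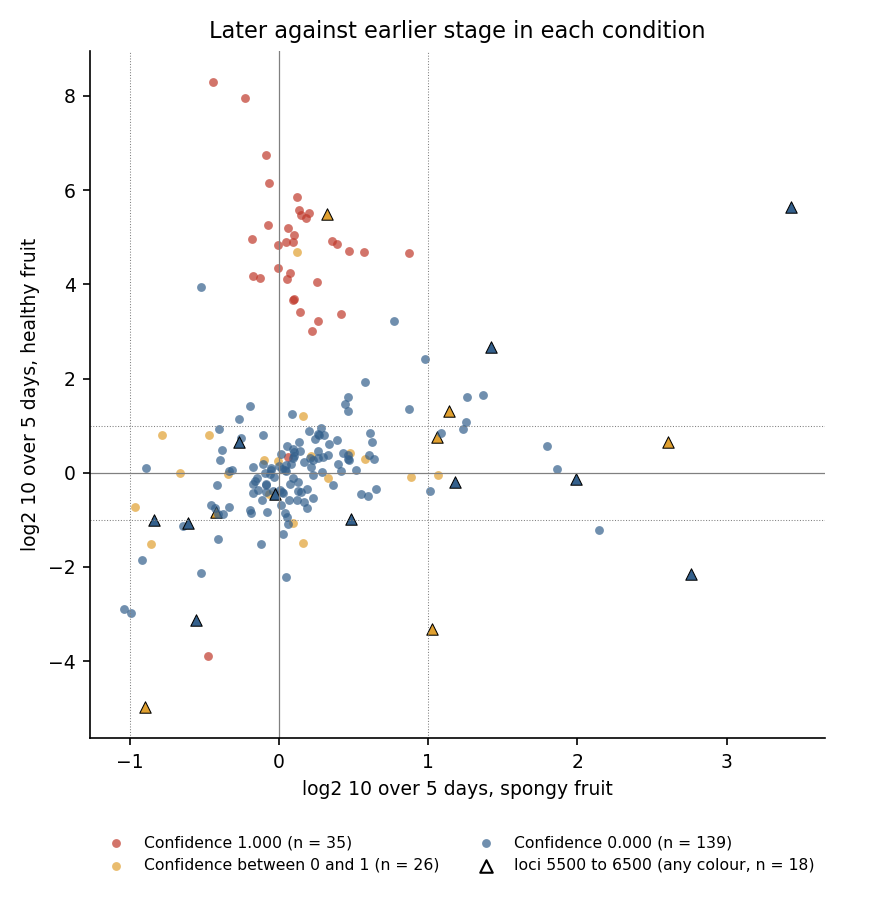
Log2 ratio of 10 over 5 days in healthy fruit (vertical axis) against the same ratio in spongy fruit (horizontal axis), 1 point per member, coloured by Confidence, with triangles for loci 5500 to 6500 and dotted lines at 2-fold. The members of Confidence 1 stand in a column near 0 for spongy fruit, at a median of 0.10, and high for healthy fruit, at a median of 4.83.

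The ratios of spongy to healthy fruit at 5 and at 10 days share no library and can be set side by side. In the spongy libraries of both stages 35 members (17.5%) were 2-fold or more above the healthy ones, and 1 (0.5%) was lower at both. Over the 29539 transcripts whose mean over the 4 libraries was 10 or more, the shares were 10.0% and 4.59%. Higher at 5 and lower at 10 days were 33 members (16.5%), against 1.07% of all transcripts. Of these 33, 31 had a Confidence of 1. The count was 1 with the same total of reads per library and 27 when totals were equalized over all loci except 2 and 3. The opposite change of side was found for 0 members, against 0.491% of all transcripts. Across the 200 members Pearson's r between the log2 ratios at the stages was 0.59 and Spearman's rho 0.19. For the 165 outside Confidence 1 r was 0.85 and rho 0.66. The transcripts share the same libraries and are not independent, so no p-value is given.

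**Figure D4:**
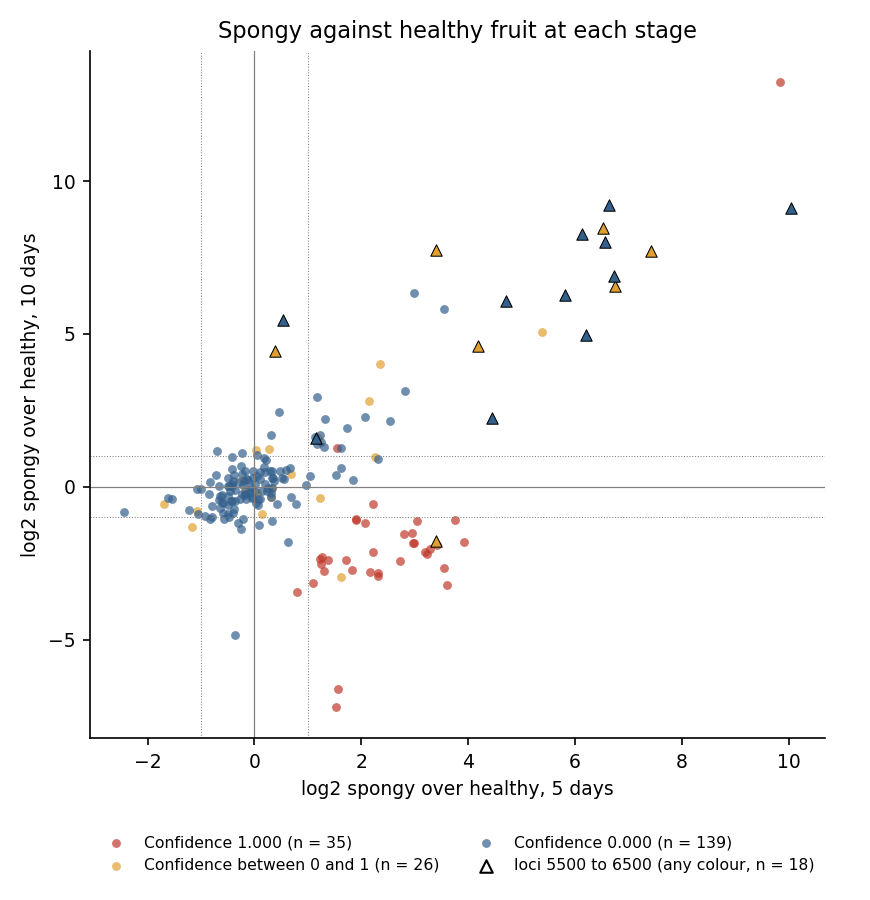
Log2 ratio of spongy over healthy fruit at 10 days (vertical axis) against the same ratio at 5 days (horizontal axis), 1 point per member, coloured by Confidence, with triangles for loci 5500 to 6500 and dotted lines at 2-fold. Of the 35 members of Confidence 1, 31 lie right of 1 and below -1, and the 35 members higher in spongy fruit at both stages lie in the upper right.

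The 35 members higher in spongy fruit at both stages had a median level of 5741 in the spongy 10-day library and 4229 at 5 days, against 373 and 646 in healthy fruit. Of these, 16 had fewer than 100 reads in the healthy 10-day library and 9 had fewer than 100 in the healthy 5-day library. By length they ran from 278 to 3436 nt. Of the 35, 15 lay in loci 5500 to 6500, a range of assembly numbers that holds 18 members. The range was chosen after these ratios were seen, and a high level in the spongy libraries raises the mean that chose the members. The counts of 35 and of 15 are therefore descriptions. Ranked by the healthy libraries, 2 of the 200 highest single-transcript loci lay in this range, and 41 when ranked by the spongy libraries. The 18 had a median level of 6060 in the spongy 10-day library and 3786 at 5 days, against 77.1 and 62.1 in healthy fruit. Of the 18, 15 had under 100 reads in the healthy 10-day library and 8 at 5 days. Loci 14440 and 5783, described above, led the 35. With equal totals of reads per library 27 members were higher at both stages, and 38 when totals were equalized over all loci except 2 and 3.

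The member lower in spongy fruit at both stages was Locus_63_Transcript_1_1_Confidence_0.714_Length_767. Its levels were 1895 and 1634 in spongy fruit at 10 and 5 days, against 4707 and 3656 in healthy fruit. It was 2.48-fold lower at 10 days (2.33 to 2.65) and 2.24-fold lower at 5 days (2.13 to 2.35). The lower level at 10 days turned with equal totals of reads per library, to a log2 ratio of 0.61, and was under 2-fold, at -0.79, when totals were equalized over all loci except 2 and 3. Next came Locus_1349_Transcript_1_1_Confidence_0.000_Length_1231, with 2982 and 1933.5 in spongy fruit against 5763 and 3656 in healthy fruit, just under 2-fold at both stages.

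For 25 members (12.5%) the log2 ratio of spongy over healthy fruit was greater by at least 1 at 10 than at 5 days, near the 12.9% of all transcripts. For 50 members (25%) it was smaller by at least 1, against 11.9% of all transcripts, and 33 of the 50 had a Confidence of 1. Both counts depend on the scaling. Equal totals of reads per library would move every ratio by -0.78 at 5 days and by 1.92 at 10 days. The greatest gain was that of Locus_6196_Transcript_1_1_Confidence_0.000_Length_1844, described above, with log2 ratios of 0.53 at 5 days and 5.44 at 10 days. Next was Locus_5607_Transcript_1_1_Confidence_0.333_Length_715, with levels of 16971 and 8339 in spongy fruit at 10 and 5 days, against 79.7 (31 reads) and 790 in healthy fruit. The spongy libraries lay above the healthy ones at both stages, by log2 ratios of 3.40 at 5 days and 7.74 at 10 days. The greatest losses were those of loci 14294 and 14293.

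Within 2-fold across all 4 libraries stood 83 members (41.5%), against 49.3% of all transcripts. Of the 83, 77 had a Confidence of 0, 6 a value between and 0 a Confidence of 1. Their median length was 1992 nt and none was under 534 nt. The steadiest was Locus_789_Transcript_1_1_Confidence_0.000_Length_3884, with levels of 2138, 2218, 2354 and 2208 in spongy fruit at 10 and 5 days and healthy fruit at 10 and 5 days, in that order. Locus_2031_Transcript_1_1_Confidence_0.000_Length_4002 was nearly as even, with levels of 2963, 2873, 3184 and 3073. The highest was 1.10 and 1.11 times the lowest in these 2. With equal totals of reads per library 5 members lay within 2-fold, and 59 when totals were equalized over all loci except 2 and 3.

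Other sets of 200 transcripts differed from the members in some comparisons and were close to them in others. Of the single-transcript loci ranked just below the members, 14.0% were 2-fold or more above and 6.0% below healthy fruit in the spongy 5-day library. At 10 days 19.0% were higher and 7.0% lower in spongy fruit, a split more one-sided than that of the members. Between the stages of healthy fruit 9.05% were higher and 9.05% lower at 10 days. In spongy ripening 8.5% were higher and 0.5% lower, close to the members' 9.5% and 0.5%. Of the 200 most abundant transcripts from loci with several transcripts, leaving out loci 2 and 3, 20.1% were higher and 21.1% lower in spongy fruit for the earlier stage. For the later stage 22.0% were higher and 26.5% lower, near the members' 22.0% each. In healthy fruit 14.5% of these were higher and 15.5% lower at 10 than at 5 days, and in spongy fruit 6.5% were higher and 1.5% lower. The differences between the sets were not tested. Higher at 5 and lower at 10 days in spongy fruit were 0 of the next 200 and 4 of the 200 from other loci, against the 33 members. Of the 33, 31 had a Confidence of 1, a value that 2 of the next 200 carried. Neither of these sets holds locus 2, where the same change of side was found for 139 of the 178 transcripts compared. The change of side is therefore not particular to the members, and their count depends on the scaling, as given above.

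**Figure D5:**
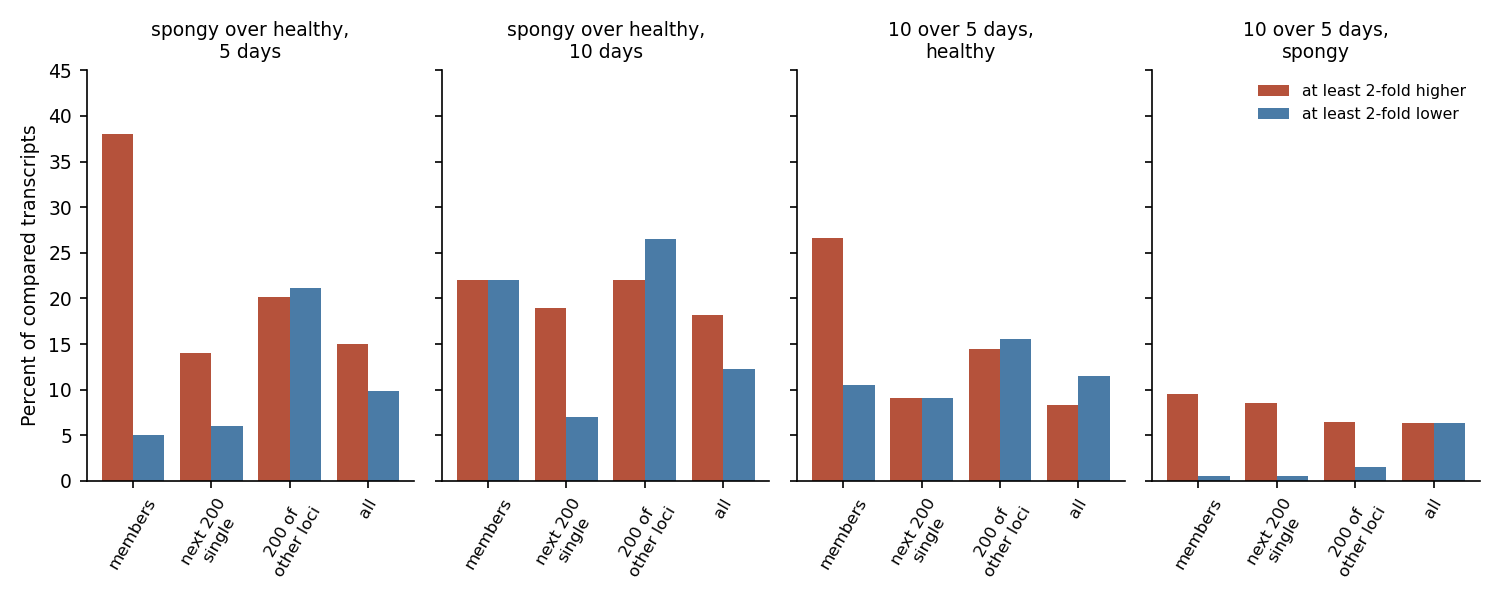
Percent of compared transcripts (vertical axis, from 0) at least 2-fold higher or lower in each comparison, for the 200 members, the next 200 single-transcript loci, the 200 most abundant transcripts of other loci outside loci 2 and 3, and all transcripts. The tallest bar is that of members higher in the spongy 5-day library, 38.0%, against 15.0% of all transcripts.

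No transcript of the series, and so no member, had an adjusted p under 0.05 in any comparison of the authors' deposited table, a DESeq2 result. An unadjusted p under 0.05 was listed there for 12 members (6.0%) for the conditions at 5 days, where 1.74% of all transcripts had one. The authors' deposited table gave 21 members (10.5%) for the conditions at 10 days, against 2.18% of all transcripts. It gave 39 members (19.5%) for the stages of healthy fruit, against 1.33%, and 0 for the stages of spongy fruit, against 0.406%. The smallest adjusted p of a member in the authors' deposited table was 0.827, for the conditions at 10 days. The authors' deposited table gave log2 fold changes a median standard error of 0.86 for the members at 5 days and 0.78 for all transcripts. That test had 1 library per group, so the absence of calls does not show likeness. Most of the members listed for the stages of healthy fruit had a Confidence of 1. A high level in the healthy 10-day library raised the mean that chose them, so that share is a description. With the same total of reads per library the members' median log2 ratio for healthy ripening was -2.48.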

How the data were processed

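Libraries from fruit mesocarp were made by standard Illumina protocols, per the labels, and the submitters' processing notes list Bowtie2 (2.2.3), DESeq2 and CASAVA (1.8.2). For the assembler, the read counter and the filters, nothing is stated in the sources used here. The authors deposited 4 tables of comparisons over the same 30582 transcripts. The deposited mean is a signal, the normalized count averaged over the 4 libraries. The deposited log2 fold change and its standard error, the test score and both p-values (unadjusted, adjusted) are the authors', per the file headers.

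Levels per library were computed from the deposited mean and fold changes, which closed around the 4 tables to within 4.88e-14. Taking each table's fold change as its first-named group over its second made 99.98% of 103991 recovered values under 1000 reads whole to within 0.05, against 10.1% in the opposite reading. Values under 0.35 read were set to 0. The tables' names give the groups, healthy being named control there. Ratios are of levels divided by the authors' size factors, and 1 was added where a library was at 0. A transcript was compared where the 2 libraries averaged 10 or more. The steps were tested on simulated data.

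Members, lists and tests were chosen with earlier results of these data known. Transcripts were named by a rule: the 5 highest means, the 2 highest and 2 lowest ratios of each comparison if at least 2-fold, the 2 most extreme at both stages in each direction, the 2 with the greatest difference between stages in each direction, the 2 steadiest, and ranks 200 and 201. The transcripts of loci 14444 and 5548 were named after their values were seen. Alternatives were other scalings (the same total per library, the same total outside loci 2 and 3, TMM with 30% of ratios and 5% of levels trimmed, centring on the median), 10 added to each level, and other rankings. The software was matplotlib 3.10.9, scipy 1.17.1, pandas 2.3.3 and numpy 2.4.6 under Python 3.11.15.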

Additional observations from a re-analysis of the deposited data

Results flagged for a closer look

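Some members had ratios of spongy to healthy fruit on opposite sides at the stages, each at least 2-fold. With 1 library per group the difference between the stages was not tested, and its cause was not tested. With the same total of reads per library, 0 of the 6 transcripts below were 2-fold apart on opposite sides at the stages. Loci 14262, 14164 and 14245 were then no longer lower at 10 days and locus 14162 was at -0.23 there, while loci 14294 and 14293 were at 0.75 and 0.78 at 5 days. The median log2 ratio of the 35 members of Confidence 1 was -2.20 at 10 days and 2.22 at 5 days, and -0.28 and 1.44 with the same total per library. Among the named transcripts, locus 14262 had log2 ratios of -1.05 at 10 days and 1.90 at 5 days, and locus 14162 had -2.15 and 3.19. Locus 14164 had -1.84 at 10 days and 2.99 at 5 days, and locus 14245 had -1.19 and 2.08. Locus 14294 had -7.21 at 10 days and 1.52 at 5 days, and locus 14293 had -6.63 and 1.56.

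A pair of named members had stage ratios on opposite sides in the conditions, a difference that was likewise not tested. The log2 ratio of 10 over 5 days for locus 6196 was 2.76 in spongy fruit and -2.15 in healthy fruit, where under 100 reads were left at 10 days. For locus 5607 it was 1.03 in spongy fruit and -3.31 in healthy fruit, where 31 reads were left at 10 days.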

How the results depend on the processing

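With the same total of reads per library, members higher and lower in spongy fruit numbered 50 and 57 at 5 days and 153 and 7 at 10 days, and those higher and lower at 10 days numbered 31 and 158 of 199 in healthy fruit. In spongy fruit 3 (1.5%) were lower at 10 days, against 6.97% of all transcripts. Members within 2-fold in all libraries came to 5. The median log2 ratios were -0.47, 1.82 and -2.48 for the conditions at 5 and 10 days and for healthy ripening. With the same total outside loci 2 and 3, 57 members (28.6%) were lower at 10 days in healthy fruit, against 34.4% of all transcripts. In spongy fruit 4 (2%) were lower at 10 days, against 7.73% of all. Lower in spongy fruit at both stages were 0 members. The members' medians were then 0.43 for the conditions at 10 days, -0.46 for healthy ripening and -0.0048 for spongy ripening. Those of all transcripts were 0.54, -0.73 and -0.10 in the same order. Each such scaling moves every ratio of a comparison by 1 amount. Counts across both stages or all libraries are given under these scalings without the share of all transcripts. Without the 35 members of Confidence 1, an alternative chosen after seeing the data, 42 were higher in spongy fruit at 5 days, 12 lower at 10 days and 20 higher at 10 days in healthy fruit. Members higher at 10 days in spongy fruit numbered 12 when ranked by the median of the 4 levels and 9 when ranked by the healthy libraries, and 0 were lower when ranked per kb. The remaining 73 combinations of a result and an alternative, TMM, centring and 10 added among them, gave counts within 1.5 times the reported ones or medians within 0.1. Of 58 ratios of at least 2-fold, taken over the named transcripts and the median of Confidence 1, 5 changed side under 1 of the 3 other scalings, the same total per library. The log2 ratios of spongy over healthy fruit at 10 days then became 0.86 for locus 14262, 0.078 for locus 14164, 0.73 for locus 14245, 0.61 for locus 63 and 0.16 for locus 5548. No paired analysis was possible because the labels give no replicate numbers and each comparison sets 1 library against 1. A fit of condition and stage over the 4 libraries together was not run. In healthy fruit, 18 members at 10 days and 10 at 5 days had under 100 reads, and their intervals are the widest.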

Other observations

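How many transcripts of each kind enter the top 200 depends on the libraries that are averaged. Ranked by the healthy library of 5 days alone, in which the class was lowest, 15 of the 200 highest single-transcript loci had a Confidence of 1. Ranked by the spongy libraries there were 30, and by the healthy libraries 35. Loci 5500 to 6500 supplied 41 of the 200 when the spongy libraries were averaged and 2 when the healthy libraries were, against 18 among the members. Ranked by mean level per kb, 142 members stayed among the 200 highest and 51 of the 200 had a Confidence of 1.

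Single-transcript loci with a Confidence of 1 that were not members numbered 141, of which 71 could be compared between the stages of healthy fruit. Of the 71, 23 gained 2-fold or more by 10 days and 7 were lower, with a median log2 ratio of 0.30, against 33 higher and 1 lower of the 35 members. The members' mean level includes the library of 10 days, so a high value there helped to choose them. Locus_5548_Transcript_1_1_Confidence_0.949_Length_585 was the 1 member of loci 5500 to 6500 that was lower in spongy fruit at 10 days. Its levels were 32044 and 25618 in spongy fruit at 10 and 5 days, against 108759 and 2420 in healthy fruit. Under equal totals of reads per library its log2 ratio at 10 days was 0.16, on the other side.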
